A study of Mus musculus with 2 samples.

Results

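Kit and Kitl encode a receptor and its ligand, and both were followed through every cell class of the neonatal mouse lung in 2 single-cell RNA-seq libraries, as 2 of the 27998 genes counted. Kit was chosen by its lower level in the endothelial cells (ECs) of the hyperoxia library, so that its values in ECs describe what chose it and support nothing, and Kitl was taken as its known ligand. Wild-type C57BL/6 mice (C57BL/6J in the methods of the study) were kept in room air (21% oxygen) or in hyperoxia (80% oxygen) from birth to postnatal day 14, and the lungs of 8 mice were pooled into 1 library per group. With 1 library per group there was no test between the groups, and a difference between libraries cannot be told apart from one between exposures. The cell filters left 3680 cells in room air and 10472 in hyperoxia, and 12 cell barcodes were kept in both libraries. Levels are in CPM, the summed UMIs (unique molecules) of a gene per 1000000 summed UMIs of a group of cells. Values in parentheses are 95% intervals, exact Poisson for CPM and Clopper-Pearson for shares, which cover counting error only.

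Kit is a receptor tyrosine kinase of the class III family, at the cell surface of blood stem cells, mast cells, melanocytes, germ cells and some ECs. Its ligand, Kit ligand or stem cell factor, is made as a membrane protein that either stays on the cell that makes it or is cut off and released. Binding pairs the receptors, which phosphorylate each other and recruit adaptors of the PI3K, MAPK and JAK/STAT pathways. In the lung, Kit is known as a marker of general capillary cells (gCap), the capillary ECs with progenitor activity, while the aerocytes (aCap) are the large capillary ECs of the gas exchange surface.

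Kit lies on the plus strand at chr5:75574916-75656722 (GRCm38, GENCODE) and Kitl on the plus strand at chr10:100015630-100100416. The 250 bases before a RefSeq start of each gene are shown because they are the most direct sequence view of how the promoters of receptor and ligand differ. Both are from RefSeq (GRCm38.p6), at chr5:75574737-75574986 and chr10:100015571-100015820, with the GC boxes (GGGCGG on either strand) and the TATA box (TATAAA on the strand of the gene) in capitals. GENCODE also lists transcripts that start inside each window. RefSeq lists 2 windows for Kit, of which the first listed is shown and searched, and 1 for Kitl.
Kit promoter: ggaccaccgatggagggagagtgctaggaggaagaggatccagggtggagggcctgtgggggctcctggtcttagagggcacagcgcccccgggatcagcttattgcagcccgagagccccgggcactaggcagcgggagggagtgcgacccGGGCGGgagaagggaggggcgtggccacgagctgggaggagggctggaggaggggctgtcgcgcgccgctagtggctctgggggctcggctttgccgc
Kitl promoter: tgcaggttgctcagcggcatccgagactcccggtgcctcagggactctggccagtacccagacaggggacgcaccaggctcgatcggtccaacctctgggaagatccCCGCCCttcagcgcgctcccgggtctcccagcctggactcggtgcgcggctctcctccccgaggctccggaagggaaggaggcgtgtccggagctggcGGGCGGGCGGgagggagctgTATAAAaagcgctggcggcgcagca
The Kitl window held 1 TATA box, 25 bases before the start, and 3 GC boxes, of which 2 overlap. The Kit window held 1 GC box, 98 bases before the start, and no TATA box. Of 32851 RefSeq windows of this length, 7.59% held the TATA box and 32.7% a GC box. Neither window held AGATAA, the core bound by Gata factors, on either strand (9.99% of windows did), or the E-box CANNTG (66.2% did). G and C made up 70.8% of the Kit window and 69.2% of the Kitl window, against a median of 52.4%. A match of letters is not a binding site, and no factor was measured at these windows.

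Known splice forms of both genes cannot be told apart in these libraries, which count the 3' end of each transcript. Exon 6 of Kitl, at chr10:100080857-100080940, is present in the longer transcript (Kitl-202) and skipped in Kitl-201, and it holds the main site at which the ligand is cut from the membrane.
Kitl exon 6: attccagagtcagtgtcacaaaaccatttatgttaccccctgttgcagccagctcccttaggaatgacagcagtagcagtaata
The end of Kit exon 9, at chr5:75639117-75639158, is used in a longer and a shorter form, and the capitals mark the 12 bases that the shorter form leaves out.
Kit exon 9 end: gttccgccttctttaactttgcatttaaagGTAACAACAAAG
Exon 6 of Kitl lies 4653 bases of transcript away from the end of Kitl-202, and the alternative bases of Kit 3568 bases from the end of Kit-201. The counts below therefore add membrane-bound and released forms of the ligand, and both forms of the receptor.

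Of all Kit UMIs, ECs held 92.1% in room air and 81.7% in hyperoxia, although they were 28.3% and 24.4% of the cells. The gCap-like cells alone held 76.7% and 65.9%. Kitl UMIs were also mostly in ECs, with 80.2% and 84.2%, but in another subpopulation. The aCap-like cells held 44.3% of Kitl UMIs in room air, where they were 4.35% of the cells, and 67.5% in hyperoxia, where they were 10.8%. Stromal-like cells held most of the remaining Kitl, 17.4% and 14.1%.

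**Figure D1:**
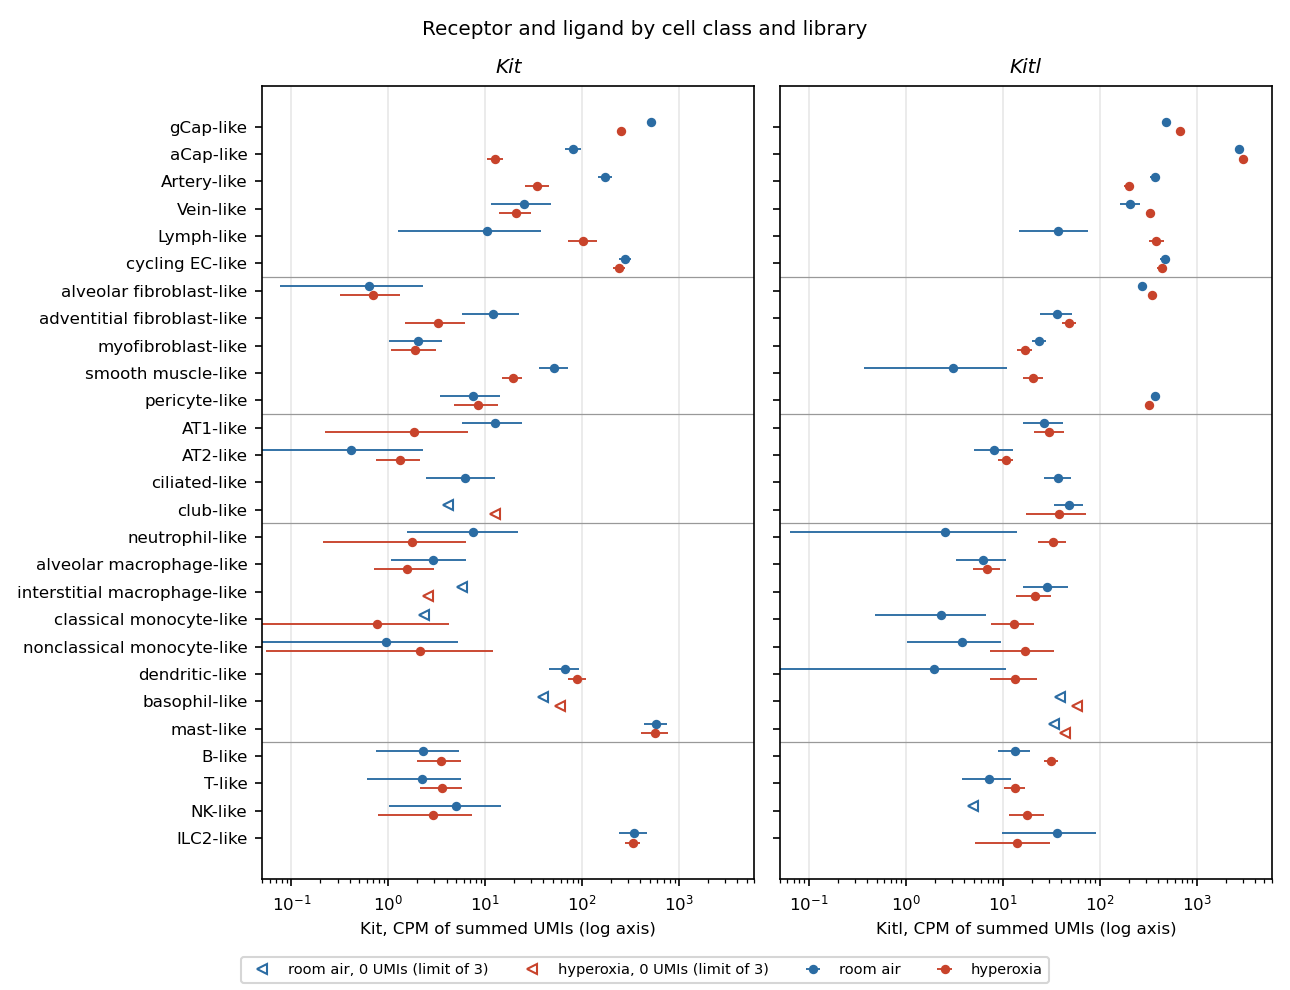
Kit (left) and Kitl (right) in CPM of summed UMIs on a log axis, by cell class (rows, in blocks of endothelial, stromal, epithelial, myeloid and lymphoid classes) for room air (blue) and hyperoxia (red), for classes of at least 5 cells in a library. Bars are exact 95% Poisson intervals, and open triangles mark 0 UMIs, drawn at the limit of 3 UMIs. Kit stood highest in gCap-like, mast-like and ILC2-like cells and Kitl in aCap-like cells.

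The order of Kit levels was led in room air by gCap-like cells, with 515 CPM (494 to 536). ILC2-like cells came next with 343 CPM (243 to 471), and did not differ beyond counting error from cycling ECs with 279 (240 to 322). Artery-like cells had 174 CPM (147 to 205) and aCap-like cells 81.2 (66.8 to 97.8). From the aCap-like cells downwards no class differed from its neighbour in the order beyond counting error, beginning with dendritic-like (65.9 CPM, 45.6 to 92.1) and smooth muscle-like cells (51.8 CPM, 35.9 to 72.4). The 6 mast-like cells of room air, too few for the order of classes with at least 10 cells, had 580 CPM (433 to 760), and mast cells are the classic cells that depend on Kit.

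In hyperoxia the order of Kit was led by the 13 mast-like cells with 570 CPM (405 to 779), followed by ILC2-like cells with 332 (280 to 392). The gCap-like cells followed with 250 CPM (239 to 262) and did not differ from cycling ECs with 240 (208 to 276). Lymph-like cells (102 CPM, 71.5 to 141) and dendritic-like cells (89.7 CPM, 72.4 to 110) were also neighbours that did not differ. Artery-like cells stood at 34.4 CPM (25.6 to 45.4), Vein-like and smooth muscle-like cells at 20.6 and 19.3, and aCap-like cells at 12.6 (10.4 to 15.3).

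B-like cells are a class that largely lacks Kit and were used as the level of free RNA in the droplets. They had 2.29 CPM of Kit in room air (5 UMIs in 417 cells) and 3.48 in hyperoxia (16 UMIs in 1376 cells), and 9 of those 16 UMIs lay in 18 cells of a cluster led by Vpreb1, Igll1 and Dntt, genes of B cell precursors. Those of room air had a median depth of 4499 UMIs and 5 of 417 held Kit, and those of hyperoxia had a median depth of 2916 and 0.872% held Kit. The Kit level of alveolar fibroblast-like, myofibroblast-like and AT2-like cells was at or below that of the B-like cells in both libraries, and their Kit is read as background.

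In ECs, Kit had 350.5 CPM (338 to 363) in the room air library, from 2909 UMIs in 1040 cells, and 112 CPM (108 to 117) in hyperoxia, from 2268 UMIs in 2551 cells. Hyperoxia over room air gave a ratio of 0.320 (0.303 to 0.339), which is -1.64 (-1.72 to -1.56) on the log2 scale. This is the contrast that chose the gene. Among the 8419 genes with a mean of at least 10 CPM in ECs, 2.90% were at least 2-fold lower in hyperoxia and 1.82% at least 2-fold higher, and 85 genes, Kit included, had a log2 ratio as low as that of Kit. The median log2 ratio over all of them was 0.00. Kit was detected in 66.8% of ECs in room air (63.9 to 69.7) and in 32.7% in hyperoxia (30.9 to 34.6), with median depths of 7225.5 and 7992 UMIs. With every cell thinned to 2000 UMIs the shares were 46.5% (43.2 to 49.9) and 17.6% (16.0 to 19.2), which left out 144 cells of room air and 409 of hyperoxia.

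The makeup of the ECs differed between the libraries, and Kit differs in level between their subpopulations. The gCap-like cells were 58.6% of ECs in room air (55.5 to 61.6) and 34.3% in hyperoxia (32.5 to 36.2), and the aCap-like cells were 15.4% (13.2 to 17.7) and 44.3% (42.4 to 46.2). With each class at its hyperoxia level but weighted by the UMIs that the classes had in room air, Kit stood at 171 CPM (164 to 179), a log2 ratio of -1.03 (-1.09 to -0.97) to room air. Room air levels weighted by the makeup of hyperoxia gave 249 CPM (239 to 260), a log2 ratio of -0.49 to room air. In this arithmetic neither weighting alone gave the whole log2 ratio of -1.64. Each class enters with 1 level, although 85.7% and 82.9% of gCap-like cells lay in clusters of which at least 90% came from 1 library. The weighting therefore cannot tell a change of level within a class from a change of the cells under its name. The part of either in the Kit values was not tested.

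Within gCap-like cells, where Kit had 515 CPM in room air and 250 in hyperoxia, the libraries differed by a log2 ratio of -1.04 (-1.13 to -0.95). It was detected in 89.5% of the 609 gCap-like cells of room air and in 72.9% of the 875 of hyperoxia. At least 6 Kit UMIs were found in 24.6% of these cells in room air and in 6.63% in hyperoxia, and the median cell had 3 and 2 UMIs. The 2 groups of gCap-like cells lay largely in different clusters, although Kit did not enter the clustering. Of the 609 cells, 515 lay in one led by Kit, Wif1 and Cadm1. Of the 875 cells, 706 lay in another led by Ntrk2, Slc6a6 and Rgcc, with Kit also among its leading genes. The remaining gCap-like cluster, of low depth and also led by Kit, was shared by both libraries with 87 and 150 cells. Kit had 653 CPM there in room air and 460 in hyperoxia, a log2 ratio of -0.51 (-0.82 to -0.19). The log2 ratio of Kit was -0.56 (-0.98 to -0.18) in the cluster with 515 cells of room air and 19 of hyperoxia. In that with 7 cells of room air and 706 of hyperoxia, Kit had 468 and 233 CPM (log2 interval -1.52 to -0.44). In gCap-like cells 2.42% of 8109 genes were at least 2-fold lower in hyperoxia and 1.80% at least 2-fold higher. The cells under this name also differed in markers between the libraries. Of 9 aCap markers 6 could be compared in them, and 4 were at least 2-fold higher and 0 lower. The 9 summed to 451 CPM in room air and 770 in hyperoxia, and the 8 gCap markers to 8849 and 9546. Of the 8 gCap markers 1 was at least 2-fold lower and 0 higher. The part of these differences in the Kit and Kitl values was not tested.

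The aCap-like and Artery-like cells had less Kit than gCap-like cells in both libraries, and a wider gap between the libraries. In aCap-like cells Kit had 81.2 CPM in room air and 12.6 in hyperoxia, which is a log2 ratio of -2.68 (-3.08 to -2.29). It was detected in 31 of 160 cells and in 67 of 1130. In the cluster that held 102 of the aCap-like cells of room air and 249 of hyperoxia, Kit had 88.0 and 2.09 CPM, and the latter is at the B-like level. The other aCap-like clusters had more Kit in hyperoxia. In that with 11 and 539 cells Kit had 59.1 and 15.2 CPM, and in that with 7 and 16 cells 79.9 and 48.8. Clusters of 35 and 215 and of 5 and 111 cells had 0 Kit UMIs in room air, and 11.1 and 24.2 CPM in hyperoxia. Markers of gCap cells moved in both directions in the aCap-like cells. Of the 8 used, 5 were at least 2-fold lower (Gpihbp1, Aplnr, Plvap, Ptprb and Tek) and 1 was at least 2-fold higher (Sema3c), against 2.82% and 2.16% of 8115 genes, and their sum was 3322 CPM in room air and 3873 in hyperoxia. The aCap-like cells with a Kit UMI had more UMIs in all than those without (medians of 15147 and 5429 in room air, 11324 and 7097 in hyperoxia) and a higher sum of the 8 gCap markers (5015 and 2366 CPM, then 5517 and 3690). The part of droplets holding a gCap and an aCap cell in these values was not tested.

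In Artery-like cells Kit had 174 CPM in room air and 34.4 in hyperoxia, which is a log2 ratio of -2.34 (-2.83 to -1.87), with detection in 57.1% of 91 cells and 16.7% of 144 cells. Here 5.63% of 8323 genes were at least 2-fold lower and 6.03% at least 2-fold higher. The Kit level of cycling ECs was 279 CPM in 46 cells of room air and 240 in 71 cells of hyperoxia, a log2 ratio of -0.21 whose interval (-0.51 to 0.08) includes 0, and of 8610 genes in them 11.3% were at least 2-fold lower and 6.95% higher. The cells under this name also differed between the libraries, since the sum of the 6 cell cycle markers was 5015 CPM in room air and 344 in hyperoxia, and that of the 8 gCap markers 4965 and 7478, with no marker of either list at 0. The part of these differences in the Kit and Kitl values of cycling ECs was not tested. Vein-like cells had little Kit in either library, 25.3 CPM (11.6 to 48.0) and 20.6 (13.9 to 29.5), where 7.07% of 8149 genes were at least 2-fold lower and 8.59% higher. An unnamed endothelial cluster of low depth, with stromal and leukocyte genes such as Col1a1 and Tyrobp in the lead, had 200 CPM of Kit (139 to 278) in 87 cells of room air and 70.2 (42.3 to 110) in 181 of hyperoxia, and 428 and 621 CPM of Kitl.

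Lymph-like cells went the other way, with 2 Kit UMIs in 14 cells of room air and 36 in 36 cells of hyperoxia, or 10.5 CPM (1.27 to 38.0) and 102 (71.5 to 141). Of 8644 genes in these few cells, 16.9% were at least 2-fold lower and 12.3% higher. The cells that carry this name differed between the libraries. The sum of the 6 lymphatic markers was 14383 CPM in room air and 3061 in hyperoxia, and that of the 8 gCap markers was 1876 and 4551, with no marker of either list at 0. The part of these differences in the Kit value was not tested.

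**Figure D2:**
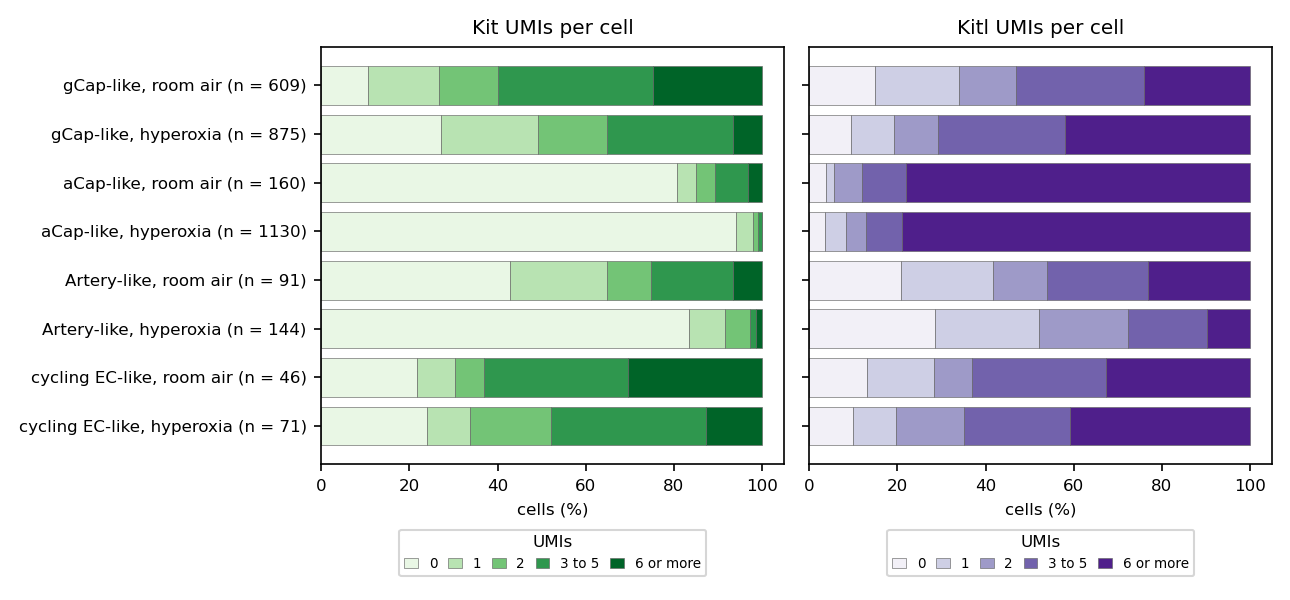
Share of cells (%) by the number of Kit UMIs (left, green) and Kitl UMIs (right, purple) found in the cell, for 4 endothelial classes in each library, with n cells beside each bar. Cells with no Kit UMI were 10.5% of gCap-like cells in room air and 27.1% in hyperoxia, while the bars of Kitl in aCap-like cells were nearly alike.

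Outside the endothelium the classes with the highest Kit levels had log2 ratios whose intervals include 0. In ILC2-like cells, the tissue-resident innate lymphocytes led by Csf2, Areg and Il1rl1, Kit had 343 CPM in 12 cells of room air and 332 in 62 cells of hyperoxia, a log2 ratio of -0.05 (-0.57 to 0.51). In mast-like cells, led by Cma1, Tpsb2 and Mcpt4, the log2 ratio was -0.02 (-0.66 to 0.60), from 52 UMIs in 6 cells and 39 UMIs in 13 cells. In dendritic-like cells it was 0.44 (-0.14 to 1.06), and 121 of their 127 Kit UMIs lay in a cluster led by Xcr1, Itgae and Clec9a, genes of the cross-presenting type 1 dendritic cells. These intervals do not show that the levels were equal, and in such small classes many genes passed 2-fold, with 13.2% of 7262 genes at least 2-fold lower and 16.9% higher in ILC2-like cells and 6.51% and 5.78% of 7129 in dendritic-like cells. No such share was counted for mast-like cells. Markers in these classes also differed between the libraries. In mast-like cells the 7 mast markers summed to 8585 CPM in room air and 29513 in hyperoxia, and the 7 neutrophil markers to 1650 and 205. In ILC2-like cells the 6 B cell markers summed to 777 and 25.9 CPM. The part of these differences in the Kit values was not tested. Basophil-like cells, the relatives of mast cells, had no Kit UMI in 14 and 13 cells, which allows up to 39.4 and 58.6 CPM.

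Smooth muscle-like cells had 51.8 CPM of Kit in room air (34 UMIs in 52 cells) and 19.3 in hyperoxia (71 UMIs in 313 cells), a log2 ratio of -1.43 (-2.04 to -0.79). Most of it lay in a cluster led by Actc1, Cnn1 and Itih4, with 70.9 and 29.8 CPM. In these cells 3.89% of 8434 genes were at least 2-fold lower and 5.44% higher. An unnamed lymphocyte cluster led by Cd163l1 and Il17a had 1 Kit UMI in 19 cells of room air and 28 in 78 cells of hyperoxia, or 8.14 CPM (0.206 to 45.4) and 66.1 (43.9 to 95.6).

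Kitl was highest in aCap-like cells in both libraries and its levels there were close, with 2762 CPM (2674 to 2851) in 160 cells of room air and 3038 (3001 to 3075) in 1130 cells of hyperoxia. The log2 ratio was 0.14 (0.09 to 0.19). Kitl was detected in 96.2% and 96.4% of the cells, and the median cell had 20 and 19 UMIs. As the mean of the single cells' CPM, the log2 ratio was -0.04, so that its direction depended on how the cells were weighted. Among 8115 genes, 3024 had a log2 ratio at least as high as that of Kitl in these cells. Between the aCap-like clusters the log2 ratio of Kitl ran from -0.16 (-0.43 to 0.12) to 0.35 (0.06 to 0.65). In the cluster with 102 and 249 cells it was 0.34 (0.28 to 0.40), from 2847 and 3610 CPM. The aCap-like cells also differed in their own markers between the libraries. The 9 aCap markers summed to 9636 CPM in room air and 6080 in hyperoxia, with no marker at 0. Of them 2 were at least 2-fold lower and 0 higher, against 2.82% and 2.16% of genes. The part of these differences in the Kitl value was not tested.

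Over all ECs, Kitl had 824 CPM (805 to 844) in the room air library and 1602 (1585 to 1620) in hyperoxia, which is a log2 ratio of 0.96 (0.92 to 0.997). With each class at its hyperoxia level but at the makeup of room air, Kitl stood at 977 CPM (964 to 990), a log2 ratio of 0.25. With room air levels at the makeup of hyperoxia it stood at 1411 CPM (1373 to 1450), a log2 ratio of 0.78. Both weightings use the same counts and take each class as 1 level, and no alternative processing was run for them. The part of makeup in the log2 ratio of 0.96 was not tested. Kitl was detected in 80.6% of ECs in room air (78.0 to 82.9) and 88.6% in hyperoxia (87.3 to 89.8), or in 60.6% (57.3 to 63.8) and 75.9% (74.0 to 77.7) at 2000 UMIs per cell.

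The other EC classes lay well below the aCap-like cells in Kitl. The gCap-like cells had 485 CPM (465 to 505) under room air and 680 (661 to 699) in hyperoxia. This is a log2 ratio of 0.49 (0.41 to 0.56), and 814 of 8109 genes had a ratio at least as high. In the gCap-like cluster shared by both libraries Kitl had 686 and 784 CPM, a log2 ratio of 0.19 (-0.09 to 0.48). It was 0.05 (-0.38 to 0.52) in the cluster with 7 cells of room air, and 0.50 (0.21 to 0.78) in that with 19 of hyperoxia. Vein-like cells had 205 and 332 CPM, with a log2 ratio of 0.69 (0.33 to 1.07). Artery-like cells had 375 CPM (334 to 418) under room air and 200 (178 to 225) in hyperoxia, so that their Kitl was lower in hyperoxia as their Kit was, with a log2 ratio of -0.90 (-1.14 to -0.67). In cycling ECs the levels were 471 and 438 CPM, with a log2 ratio of -0.10 (-0.33 to 0.12). Lymph-like cells had 7 Kitl UMIs in 14 cells of room air and 136 in 36 cells of hyperoxia, and their marker genes differed as given above.

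**Figure D3:**
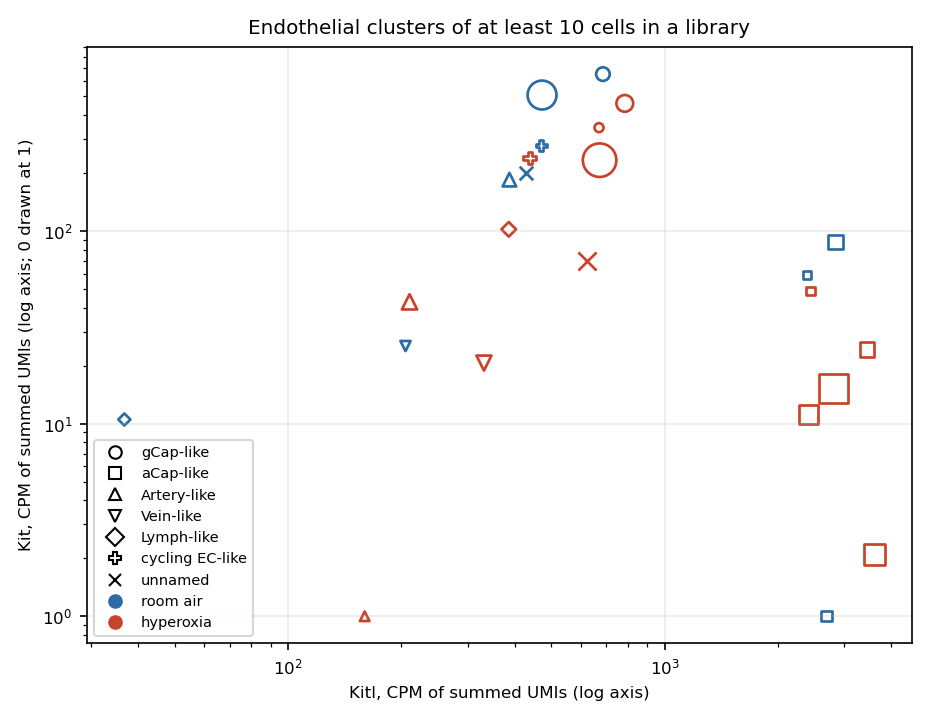
Kit against Kitl in CPM of summed UMIs, both on log axes, for each endothelial cluster with at least 10 cells in a library (blue, room air; red, hyperoxia). Shapes give the class, the area of a symbol grows with its number of cells, and clusters with 0 Kit UMIs are drawn at 1. The aCap-like clusters (squares) stand apart on the right with at least 2391 CPM of Kitl and at most 88.0 CPM of Kit, and the gCap-like clusters (circles) at the top with 233 CPM of Kit or more.

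Receptor and ligand were thus highest in different capillary classes, but they were also found in the same cells. With all cells at 2000 UMIs, both genes were detected in 35.9% of gCap-like cells in room air (32.0 to 40.0) and in 24.8% in hyperoxia (21.9 to 27.8). The product of the separate shares gave 35.9% and 25.3%, so that the 2 genes were found together in gCap-like cells about as often as their separate shares give. In aCap-like cells both were detected in 4.69% (1.74 to 9.92) and 2.08% (1.26 to 3.23). In Artery-like cells both were found in 18 of 91 cells of room air and 3 of 141 of hyperoxia, where the products gave 14.1% and 1.34% of cells.

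Among stromal-like cells, Kitl was carried by alveolar fibroblast-like cells and pericyte-like cells. Alveolar fibroblast-like cells, which lie against the alveolar wall, had 274 CPM (256 to 293) in 221 cells of room air and 346 (335 to 356) in 1205 cells of hyperoxia, a log2 ratio of 0.34 (0.23 to 0.44). The 2 libraries lay largely in different clusters of this class, with 81.4% and 86.7% of the cells in clusters of which at least 90% came from 1 library. Of 8424 genes in this class 1.73% were at least 2-fold lower and 2.59% higher. Pericyte-like cells, the mural cells of capillaries, had 373 CPM (339 to 409) and 321 (296 to 347), a log2 ratio of -0.22 (-0.39 to -0.04), and detection at 2000 UMIs of 50.4% (41.0 to 59.9) and 39.5% (32.6 to 46.7). Of 8537 genes in pericyte-like cells 3.55% were at least 2-fold lower and 3.84% higher. A pericyte-like cluster led by Parm1 and Itga4 had little Kitl (30.4 and 10.6 CPM) and held 14 of the 124 cells of room air and 56 of the 222 of hyperoxia, while the largest pericyte-like cluster of each library had 432 and 451 CPM. Adventitial fibroblast-like cells had 36.3 and 48.4 CPM and myofibroblast-like cells 23.8 and 16.8 CPM. Over all stromal-like cells Kitl had 128 CPM (122 to 135) under room air and 184 (179 to 189) in hyperoxia, which is a log2 ratio of 0.52 (0.44 to 0.60), and alveolar fibroblast-like cells were 221 of 845 and 1205 of 2602 of them. Of 8774 genes over all stromal-like cells 1.27% were at least 2-fold lower and 1.61% higher.

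The B-like level of Kitl was 13.3 CPM (8.90 to 19.1) and 31.6 (26.6 to 37.1), and 1 cluster of 64 B-like cells, with the fibroblast gene Limch1 among its leading genes, held 15 of the 29 and 48 of the 145 UMIs. Kitl was also higher in hyperoxia in other leukocytes, with 3.77 and 17.2 CPM in nonclassical monocyte-like cells, 2.52 and 32.7 in neutrophil-like cells, and 0 of 73 and 25 of 269 cells with a UMI in NK-like cells. These levels, and those of AT1-like, AT2-like and smooth muscle-like cells in hyperoxia (30.3, 10.7 and 20.6 CPM), were at or below the B-like level of that library, or above it by less than counting error in neutrophil-like cells, and are read as background. The B-like level includes the cluster of 64 cells. This reading is therefore least sure for neutrophil-like and AT1-like cells, whose levels lie nearest to it. In an unnamed epithelial group of low depth, whose larger cluster is led by the muscle and stromal genes Tagln and Mgp, Kitl had 1 UMI in 34 cells of room air and 73 in 214 cells of hyperoxia (172 CPM, 135 to 216). The mast-like cells, which carry the receptor, had no Kitl UMI in 6 and 13 cells, which allows up to 33.4 and 43.9 CPM.

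The order of Kitl in room air ran from aCap-like cells to gCap-like (485 CPM) and cycling ECs (471), which did not differ from each other, then to Artery-like (375) and pericyte-like cells (373), which also did not differ, then to alveolar fibroblast-like (274) and Vein-like cells (205). In hyperoxia it ran from aCap-like to gCap-like cells (680 CPM). Cycling ECs (438 CPM), Lymph-like (386), alveolar fibroblast-like (346), Vein-like (332) and pericyte-like cells (321) followed, each no different from the next beyond counting error, and Artery-like cells (200) came after them.

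The genes that act with Kit stayed within 2-fold between the libraries in ECs, as most genes did. Of all 8419 genes compared in ECs, 2.90% were at least 2-fold lower and 1.82% higher. Counts of 0 in this and the following short lists therefore say little about their genes. Of 24 genes of Kit signal transduction, 18 had a mean of at least 10 CPM, and 0 of them were 2-fold lower or higher, with a median log2 ratio of -0.10. Mapk3 (ERK1) had 348 and 356 CPM and Lyn, a Src family kinase that Kit activates, 237 and 197. Fyn, of the same family, stood highest of the list by ratio, with 158 and 229 CPM, and Stat5a lowest with 12.9 and 7.18. Of 14 negative regulators, 10 could be compared and 0 passed 2-fold, with a median of 0.13. The ubiquitin ligase Cbl, which takes active Kit out of the membrane, had 125 and 108 CPM. Spred1, an inhibitor of RAS-MAPK signalling, had 90.1 and 99.4, and Spred2 34.3 and 61.6.

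The proteases that cut the ligand or the receptor from the membrane also stayed within 2-fold in ECs, as most genes did. Of 6 listed, 4 could be compared, with a median log2 ratio of 0.02, and Adam10 had 143 and 159 CPM and Mmp14 121 and 119. Adam17, known for shedding of Kit, had 63.0 and 65.5. Of 9 transcription factors known to act on Kit, 5 could be compared, with a median of 0.05 and 0 past 2-fold. Gata2 had 276 and 383 CPM and Lmo2, a partner of GATA and Tal1 factors, 277 and 287. Tal1 had 88.1 and 68.8.

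Of the other class III receptors and their ligands, the receptors Csf1r, Flt3, Pdgfra and Pdgfrb were all under 10 CPM in ECs. Among the ligands 4 could be compared and 0 passed 2-fold in ECs, with Pdgfb, which recruits pericytes, at 225 and 286 CPM and Pdgfd at 33.0 and 49.4. Within gCap-like cells Pdgfd passed 2-fold, with 24.2 and 49.0 CPM (log2 ratio 1.02, 0.71 to 1.33), where 1.80% of genes did.

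Mast cell genes and genes that respond to tissue dissociation were followed beside Kit. Of 10 mast cell and basophil genes 0 reached a mean of 10 CPM in ECs, and Hdc was the highest with 7.83 and 7.03. The 7 mast markers summed to 7.95 CPM in ECs of room air (5 of 7 at 0) and 12.2 in those of hyperoxia (0 of 7 at 0), while in mast-like cells they summed to 8585 and 29513. All 12 dissociation genes could be compared and stayed within 2-fold in ECs, as most genes did. In ECs 11 of them had a log2 ratio above 0 and 1 below, with a median of 0.24 against 0.00 over all genes. Jun, the highest in level of these genes, had 1298 and 1513 CPM. Their part in the Kit values was not tested.

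**Figure D4:**
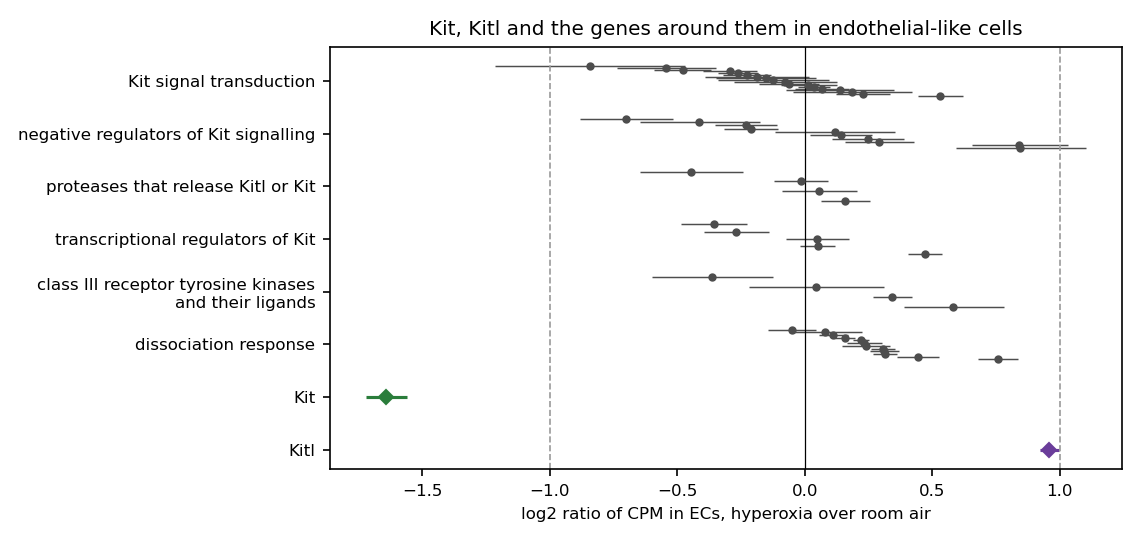
Log2 ratio of CPM in ECs, hyperoxia over room air, for each listed gene with a mean of at least 10 CPM (grey points, by list), for Kit (green) and for Kitl (purple), with exact 95% conditional intervals. Dashed lines mark 2-fold. All 53 grey points lie between these lines, and Kit lies outside them at -1.64. Of all 8419 genes compared in ECs, 2.90% were at least 2-fold lower and 1.82% higher.

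The genes whose levels ran most like those of Kit over 40 groups of at least 50 cells (23 classes in up to 2 libraries, log2 of CPM + 1, 8259 genes that reached 50 CPM in a group) were Hey1, a Notch target, with r = 0.76, Gpr182 (0.74), Unc45b (0.74), Pcdh1 (0.73) and Dysf (0.73). Those most like Kitl were Mest (0.92), Tmem100 (0.91), Ddah1 (0.91), Nsg1 (0.87) and Smurf2 (0.87). Kit and Kitl themselves had r = 0.45, and 810 genes ran more like Kit than Kitl did. The groups share 2 libraries and classes of 1 lineage are alike, so that these values describe the pattern and carry no p-value. In gCap-like cells, where Kit had a log2 ratio of -1.04, that of Hey1 was -0.38, of Gpr182 -0.52 and of Unc45b -0.54. Those of Pcdh1 and Dysf were 0.46 and 0.97. In aCap-like cells, where Kitl differed by 0.14, Mest had a log2 ratio of -1.10 and Tmem100 -0.58. Ddah1 had -0.03, Smurf2 0.15 and Nsg1 0.50.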

How the data were processed

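Lung cells of 8 pooled mice per group were profiled by droplet scRNA-seq (10x Genomics), 1 library in room air and 1 in hyperoxia. The authors aligned the reads to the mouse transcriptome and counted UMIs with Cell Ranger, and deposited raw UMI counts per gene and barcode (27998 genes, 151528824 UMIs). The sources differ on the version (6.1.1 in the protocol, 2.1.1 in the submitters' processing notes with build mm10, 3.1.0 in the matrix header). The labels and the methods also differ on the version of the 10x kit. Counting at the 3' end sums the isoforms of a gene.

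Barcodes under 500 genes were left out (345 in room air, 1026 in hyperoxia), then those over 20% mitochondrial UMIs (80 and 486). Cells with the most simulated doublets as neighbours were removed at 0.8% per 1000 barcodes (129 and 1239). Median depth was 8070.5 and 7209.5 UMIs per cell kept. Both libraries were clustered together (2000 variable genes, 30 components, 20 neighbours, Leiden resolution 1, seed 1) without Kit, Kitl and 7 further reported genes, and lineages were clustered again. Clusters were named "X-like" from markers. After a first look at the clusters 3 naming steps were changed: Tyrobp and Fcer1g were allowed in lymphocytes, a cluster with none of its markers among its 10 leading genes and fewer than 50% of them raised stayed unnamed, and a mixed mast cell cluster was split. The members, gene lists and markers were chosen with earlier results of these data known. Classes are rebuilt and may differ from those of the study.

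CPM of summed UMIs, shares of cells with at least 1 UMI, and ratios were given with exact 95% intervals (Poisson, Clopper-Pearson, conditional binomial), a gamma interval for levels at another makeup, and a combination of both exact intervals for differences of shares. They cover counting error only. A count of 0 was read as allowing 3 UMIs. Cells were thinned once to 2000 UMIs without replacement. Genes were compared in ECs with a mean of at least 10 CPM and a fold of 2. The named genes were Kit and Kitl in every class, each listed gene past 2-fold in ECs or otherwise the 2 highest of its list, and the 5 genes most like each member. Stat5a, Fyn, Spred2, Adam17, Tal1, Pdgfd in gCap-like cells, Hdc, the class III receptors and the gCap markers in aCap-like cells were named after their values were seen. Intervals and calls were tested on simulated data. Alternatives covered cell filters, doublets, resolution, separate clustering, TMM factors (edgeR 4.0.16), excluded genes, per-cell means, background and depth. Python 3.11.15, scipy 1.17.1, scikit-learn 1.9.0, leidenalg 0.10.2 and R 4.3.3 were used.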

Additional observations from a re-analysis of the deposited data

Results flagged for a closer look

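Kit went in opposite directions between cell classes, judged by intervals of counting error that lie on different sides of 0, and the difference between classes was not tested. Its log2 ratio of hyperoxia to room air was -1.04 in gCap-like, -2.68 in aCap-like, -2.34 in Artery-like and -1.43 in smooth muscle-like cells, and 3.28 in Lymph-like cells, which rest on 2 UMIs in room air and differ in their own markers between the libraries. Kitl had log2 ratios of -0.90 in Artery-like and -0.22 in pericyte-like cells, and of 0.49 in gCap-like, 0.14 in aCap-like, 0.69 in Vein-like, 3.39 in Lymph-like and 0.34 in alveolar fibroblast-like cells, also without a test of the difference. The value in aCap-like cells had the other sign as a mean over single cells.

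Of the 3 sets of barcodes that the comparisons left out, 2 had a higher Kitl level in hyperoxia. Those with under 500 genes had 342 CPM (303 to 385) there and 206 in room air, and those removed as doublets had 494 CPM (485 to 503) and 266. Those over 20% mitochondrial had a lower level in hyperoxia, 194 CPM (171 to 221), than in room air, 239 (175 to 318), with intervals that overlap. The cells kept had 234 CPM of Kitl in room air and 439 in hyperoxia. Kit in the 3 sets, in the order given, had 103, 109 and 20.7 CPM in room air and 7.31, 35.8 and 30.6 in hyperoxia.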

How the results depend on the processing

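No paired analysis was possible because each group had 1 library. Of 104 alternative values 76 stayed within the interval of counting error (for counts of genes, within 1.5 times), 27 moved beyond it and 1 changed direction. The Kit log2 ratio in ECs was -1.52 with double the doublets removed and -1.55 with TMM factors, and in gCap-like cells it was -0.94 as a mean over single cells. At the makeup of room air it was -0.97 at resolution 2, -1.25 with each library clustered on its own and -0.94 with TMM factors. The Kitl log2 ratio in ECs was 1.12 with double the doublets removed, 0.92 at resolution 0.5 and 1.05 with TMM factors. In aCap-like cells it was 0.048 both without doublet removal and with double the doublets removed, 0.32 with separate clustering, 0.19 with TMM factors and -0.036 as a mean over single cells, and in stromal-like cells 0.67, 0.61, 0.37, 0.60 and 0.41 without doublet removal, with double the doublets removed, at resolution 0.5, as a mean over single cells and with the B-like level subtracted. The difference in the share of Kit-positive ECs was -29.0 percentage points at 2000 UMIs and -18.7 at 1000, and that of Kitl-positive ECs 15.3, 19.2 and, with at least 2 UMIs, 15.2. Genes at least 2-fold lower in ECs numbered 244, but 65 with a mean of at least 50 CPM and 2206 with no minimum beyond 1 UMI in each library, and those 2-fold higher 153, 62 and 763. Restricting ECs to cells of at least 2000 UMIs, added after seeing the data, gave 5 values within the intervals. The causes were not tested, beyond the number of genes or UMIs that an alternative leaves. Limits on depth are widest for classes of few cells, and 1 library per group limits all comparisons between exposures.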
